A study of Mus musculus with 6 samples.

Results

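The genes described here are 10 members of the piRNA pathway: Mael, Mov10l1, Piwil2, Ddx4, Tdrkh, Tdrd1, Tdrd9, Asz1, Rnf17 and Piwil4. They were taken from a named list by the gene symbol of the array's annotation, and all 10 were found among the 19938 genes that could be tested. Each was read by 1 probe set, the group of probes that the array assigns to a transcript. Expression was measured on 6 GeneChip Mouse Gene 1.0 ST arrays, one-colour arrays, hybridised with RNA from the mouse embryonic stem cell line V6.5. Every sample carried a hairpin: shRNA1 or shRNA2, which by the labels target Pcgf6, or a Scrambled control. Each hairpin line was grown with doxycycline (dox) at 1 µg/ml and without it, and each condition of each line was read on 1 array. This gave 2 arrays of induced and 2 of uninduced Pcgf6 hairpins, and 1 array each of the scrambled hairpin with and without dox. How long dox was given, and whether a line was 1 clone or a pool, is not stated in the labels. The stem cells grew on inactivated embryo fibroblasts as feeder cells, and RNA of those cells can be part of every sample.

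piRNAs are small RNAs that bind the PIWI branch of the Argonaute proteins and guide the silencing of transposons in the germ line. Their precursors are cut and trimmed on mitochondria and in cytoplasmic granules called nuage, where RNA helicases and Tudor-domain scaffold proteins assemble the PIWI proteins with their RNA. Most of these genes are kept at a low level outside the germ line. Pcgf6 encodes a RING finger protein of PRC1.6, a variant polycomb repressive complex that also contains the DNA-binding factors MGA, MAX and E2F6, and a part of the germ-line genes are known targets of that complex in embryonic stem cells.

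Reference promoters are shown as a description, because PRC1.6 holds factors with known sequence preferences. A link between these sequences and the change with dox was not tested. Windows running from 250 bases before to 50 bases after an annotated start were taken from RefSeq (GRCm38.p6), and 8 of the 10 genes had at least 1 window. Piwil2 and Rnf17 had none. The windows printed are those of Mael (chr1:166238695-166238994, minus strand), Ddx4 (chr13:112652261-112652560, minus strand), Mov10l1 (chr15:88982744-88983043, plus strand), Tdrkh (chr3:94412994-94413293, plus strand), the first of 3 annotated starts of Tdrd1 (chr19:56825959-56826258, plus strand) and Tdrd9 (chr12:111971309-111971608, plus strand). Capitals mark CACGTG, the E-box bound by MAX and its partners, and TCCCGC, an E2F-type site, which reads GCGGGA on the opposite strand.
Mael: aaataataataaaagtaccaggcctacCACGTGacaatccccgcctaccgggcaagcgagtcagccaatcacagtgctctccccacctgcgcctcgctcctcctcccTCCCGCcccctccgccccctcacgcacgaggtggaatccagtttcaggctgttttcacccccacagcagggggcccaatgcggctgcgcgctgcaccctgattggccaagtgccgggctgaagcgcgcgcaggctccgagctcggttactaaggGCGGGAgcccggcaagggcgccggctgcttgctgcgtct
Ddx4: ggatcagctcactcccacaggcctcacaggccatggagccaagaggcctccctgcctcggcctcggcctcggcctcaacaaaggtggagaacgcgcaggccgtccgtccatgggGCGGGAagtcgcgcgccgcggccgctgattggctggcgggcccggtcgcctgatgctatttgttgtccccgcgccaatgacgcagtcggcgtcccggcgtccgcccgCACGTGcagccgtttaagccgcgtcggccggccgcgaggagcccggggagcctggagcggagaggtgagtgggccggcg
Mov10l1: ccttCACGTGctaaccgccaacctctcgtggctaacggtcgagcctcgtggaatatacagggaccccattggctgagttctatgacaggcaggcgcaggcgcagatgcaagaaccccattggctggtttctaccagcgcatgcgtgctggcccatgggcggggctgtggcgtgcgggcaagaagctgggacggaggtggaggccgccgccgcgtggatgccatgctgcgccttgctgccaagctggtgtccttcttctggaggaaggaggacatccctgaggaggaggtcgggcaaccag
Tdrkh: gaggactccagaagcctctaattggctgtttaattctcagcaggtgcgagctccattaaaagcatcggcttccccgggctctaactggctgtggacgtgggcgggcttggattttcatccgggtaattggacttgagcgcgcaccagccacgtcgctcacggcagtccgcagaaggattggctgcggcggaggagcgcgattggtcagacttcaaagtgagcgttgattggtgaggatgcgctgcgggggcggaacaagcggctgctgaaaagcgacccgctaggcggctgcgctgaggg
Tdrd1: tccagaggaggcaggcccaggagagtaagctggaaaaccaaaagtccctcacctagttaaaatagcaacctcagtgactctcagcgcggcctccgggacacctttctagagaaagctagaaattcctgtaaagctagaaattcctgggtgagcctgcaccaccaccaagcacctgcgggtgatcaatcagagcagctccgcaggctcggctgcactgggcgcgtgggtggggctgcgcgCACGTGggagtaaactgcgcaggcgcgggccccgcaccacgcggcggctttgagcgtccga
Tdrd9: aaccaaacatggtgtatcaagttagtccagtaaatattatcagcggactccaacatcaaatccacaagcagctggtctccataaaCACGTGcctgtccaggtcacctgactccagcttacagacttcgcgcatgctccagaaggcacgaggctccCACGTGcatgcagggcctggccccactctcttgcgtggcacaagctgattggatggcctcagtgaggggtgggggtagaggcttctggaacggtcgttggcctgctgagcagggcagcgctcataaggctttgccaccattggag

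CACGTG was found in the windows of 5 of the 8 genes, namely Mael, Mov10l1, Ddx4, Tdrd1 and Tdrd9. The 8 genes had 11 windows, of which 6 held it. The windows of the first and second starts of Tdrd1 overlap and share the same match, which is counted in both. Over all 32851 windows of the table, 7.15% held it on either strand. That share is per window, not per gene, and was not matched for CpG content. The match lay 29 bases before the start of Ddx4, 11 bases before the first start of Tdrd1, 223 bases before that of Mael and 246 bases before that of Mov10l1. Tdrd9 held 2 copies, 165 and 95 bases before its start. TCCCGC was found in the windows of 2 of the 8 genes. By window this was 2 of 11, against 19.98% of all windows. Mael held it at 2 places, 143 bases before and 11 bases after the start, and Ddx4 at 1, 136 bases before. Both strings together occurred in 1.99% of all windows. The motifs overlapped in none of these windows. Tdrkh, Asz1 and Piwil4 had neither string in their windows, and the third start of Tdrd1 had neither. A match is a string in the reference and not a measured binding site. CpG dinucleotides, the sites of DNA methylation, numbered 38 for Ddx4, 25 for Tdrkh, 24 for Mael, 20 for Mov10l1, 20 for the first start of Tdrd1, 17 for Asz1, 11 for the first start of Piwil4 and 10 for Tdrd9. The median over all windows was 7. Relative to base composition, the observed over expected CpG ratio was 0.98 for Ddx4, 0.96 for Tdrkh and 0.78 for Mael. It was 0.73 for the first start of Tdrd1, 0.67 for Mov10l1 and 0.43 for Tdrd9, against a median of 0.38. The third start of Tdrd1 had 0.22 and the second start of Piwil4 had 0.

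**Figure D1:**
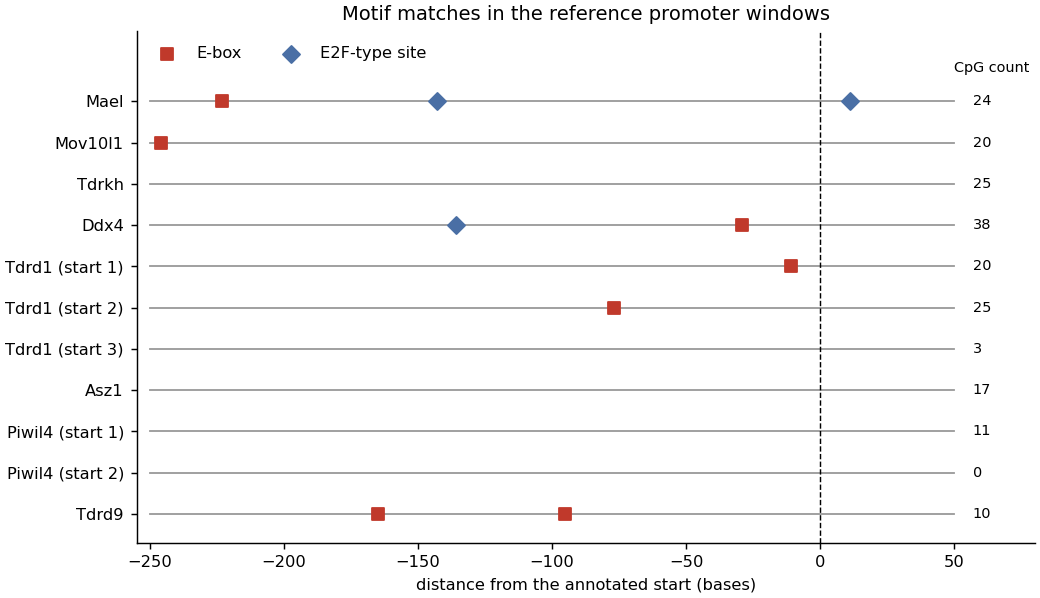
Positions of CACGTG (E-box, squares) and TCCCGC (E2F-type site, diamonds) in the reference promoter windows, by distance in bases from the annotated start (dashed line), with the CpG count of each window at the right. Genes are ordered by their change with dox in the Pcgf6-hairpin lines, largest at the top. Mael and Ddx4 hold both strings and Tdrd9, at the bottom, holds 2 E-boxes.

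Values are deposited log2 expression values, so a difference of 1 is a doubling. Pcgf6 (probe set 10468275) read 9.39 and 9.27 with dox in the hairpin 1 and hairpin 2 lines and 11.56 and 11.70 without dox. It fell by 2.30 (SE 0.10, limma adjusted p = 0.000846), while the scrambled line read 11.82 with dox and 11.80 without. Over all probe sets the array medians lay between 7.02 and 7.08, and the correlation between arrays lay between 0.990 and 0.997. The 10 stem cell markers checked, Pou5f1, Sox2 and Nanog among them, read between 10.30 and 13.10 on every array, and 0 of them passed in any comparison. In the feeder fibroblast list (17 of 18 genes measured) 0 genes passed in any comparison, 13 were higher at an unadjusted p under 0.05 in uninduced hairpins against uninduced scrambled (8.06% of all genes in either direction), single levels ran from 4.91 to 12.57, and the mean level was 9.86 on both arrays of hairpin 1. It was 10.19 with and 9.76 without dox in the hairpin 2 line, and 9.54 against 8.98 in the scrambled line. The 14 markers of defined germ cell stages, such as the protamine genes Prm1 and Prm2 and the spermatogonial gene Nanos2, and the 5 measured markers of gonadal somatic cells, had 0 members past the threshold in any comparison. Levels ran from 4.53 to 9.56 in the first of these lists and from 4.16 to 7.32 in the other. Of all genes, 0.201% passed for the change with dox in the Pcgf6-hairpin lines. The share was 0.0702% for its difference from the scrambled line and 0% between the uninduced lines. Counts of 0 in the marker lists are near these shares. In bulk RNA, a change in the number of cells that express a gene and a change in its RNA per cell cannot be told apart.

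Dox in the Pcgf6-hairpin lines was accompanied by a rise of 6 of the 10 piRNA genes: Mael, Mov10l1, Tdrkh, Ddx4, Piwil2 and Rnf17. A gene counts as passing where the limma p-value, adjusted over all 19938 genes, was under 0.05. Of all genes tested, 0.191% rose by the same criterion. The median change of the 10 genes was 1.10 on the log2 scale, against -0.01 over all genes, and 0 of the 10 fell (0.01% of all genes). At an unadjusted p under 0.05 the number was 8 of 10, all higher, against 8.75% of all genes in either direction. Of the 19938 genes, 876 were higher by that measure. The genes formed a graded series, from Mael, Mov10l1, Tdrkh, Ddx4 and Piwil2 with rises of 1.46 to 1.98, through Tdrd1 and Rnf17 at 0.74 and 0.73, to Asz1, Piwil4 and Tdrd9 between 0.33 and 0.05. Several were not dim before induction. In the uninduced Pcgf6-hairpin arrays Ddx4, Mael, Rnf17, Piwil2 and Mov10l1 averaged 9.25, 8.80, 8.73, 8.36 and 7.56. These lay above the array medians of 7.02 to 7.08. The other members averaged between 4.85 (Asz1) and 7.04 (Tdrd1). The list was assembled with earlier results of these arrays known, so its count is no independent evidence of a direction. The induced Pcgf6-hairpin arrays come from different hairpin lines, as do the uninduced ones, so the hairpins stand in as replicates. The spread behind the p-values therefore joins hairpin, line and array, and no line was repeated under the same condition. The labels do not say that the samples came from separate cultures, and how far repeated cultures of a line would vary was not measured.

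**Figure D2:**
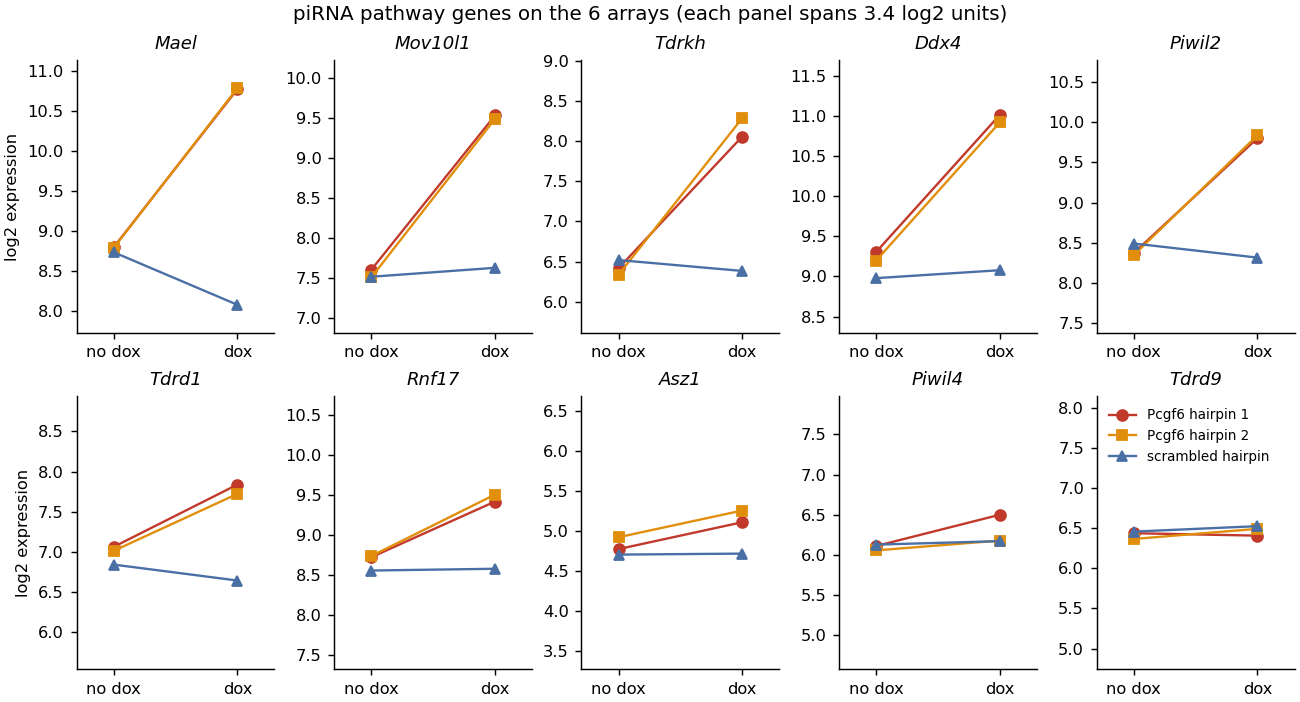
Log2 expression of each gene on the 6 arrays, without dox (left) and with dox (right), for hairpin 1 (circles), hairpin 2 (squares) and scrambled (triangles); each point is 1 array, lines join the arrays of a line, and every panel spans the same range. In the top row both induced Pcgf6-hairpin arrays lie clearly above each of the other 4 arrays; in the Tdrd9 panel the 6 arrays lie within 6.37 and 6.53.

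The PIWI proteins are the Argonautes that carry piRNAs. Piwil2, the mouse MILI protein, which takes up the first piRNAs cut from precursors, read 9.80 and 9.84 with dox and 8.37 and 8.35 without dox in the hairpin 1 and hairpin 2 lines. It read 8.31 with and 8.49 without dox in the scrambled line. Both induced hairpin arrays were above all others, and the groups did not overlap. Piwil2 rose by 1.46 (SE 0.08, adjusted p = 0.00217), a 2.76-fold change, made up of 1.43 in the first line and 1.49 in the second. Piwil4, or MIWI2, the nuclear PIWI protein that directs DNA methylation of transposons in fetal male germ cells, read 6.50 and 6.18 with dox and 6.11 and 6.05 without. The scrambled line read 6.17 and 6.13, so that the induced hairpin 2 array barely exceeded the induced scrambled array. The change of Piwil4 was 0.26 (SE 0.12, 95% interval -0.04 to 0.55, adjusted p = 0.622). The interval of Piwil4 lay below that of Piwil2, which ran from 1.26 to 1.66.

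RNA helicases unwind the precursors and remodel the complexes. Mov10l1, the helicase that binds PIWI proteins and feeds precursor RNA into processing, read 9.53 and 9.49 with dox under hairpin 1 and hairpin 2, against 7.60 and 7.51 without, and 7.63 and 7.52 with and without dox in the scrambled line. The 4 arrays other than the induced Pcgf6 hairpins lay within 7.51 and 7.63, well apart from the induced arrays. Mov10l1 rose by 1.95 (SE 0.09, adjusted p = 0.000955), or 3.86-fold. Ddx4, the germ-cell DEAD-box helicase also called Vasa, read 11.01 and 10.92 with dox and 9.30 and 9.20 without, and 9.08 and 8.98 in the scrambled line. Its groups did not overlap, and it rose by 1.72 (SE 0.09, adjusted p = 0.00178), or 3.29-fold. Tdrd9 joins a helicase domain to a Tudor domain and acts with Piwil4. It read 6.41 and 6.49 with dox, 6.44 and 6.37 without, and 6.53 and 6.46 in the scrambled line. The groups of Tdrd9 overlapped, the highest array being the induced scrambled one, and the change was 0.05 (SE 0.09, 95% interval -0.16 to 0.26, adjusted p = 0.919). Its promoter window holds 2 of the E-boxes printed above. The printed windows of Mael, Mov10l1, Ddx4 and Tdrd1 hold 1 each, and that of Tdrkh holds none. Whether the motif bears on the change with dox was not tested.

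Tudor-domain proteins bind methylated arginines of the PIWI proteins and hold the complexes together. Tdrkh, anchored on the mitochondrial surface, where it serves the trimming of piRNA ends, read 8.06 and 8.29 with dox, 6.42 and 6.33 without, and 6.38 and 6.52 with and without dox in the scrambled line. Both induced hairpin arrays stood above the other 4. Tdrkh rose by 1.80 (SE 0.11, adjusted p = 0.00259), or 3.48-fold, with 1.64 under hairpin 1 and 1.95 under hairpin 2, the widest gap between the hairpins among the 10 genes. Without the uninduced hairpin 1 array the adjusted p of Tdrkh was 0.0652, and without the uninduced hairpin 2 array it was 0.071. Tdrd1, a scaffold that binds Piwil2 in nuage, read 7.84 and 7.72 with dox, 7.06 and 7.01 without, and 6.64 and 6.84 in the scrambled line. The induced hairpin arrays were the highest and the scrambled arrays the lowest. The change of Tdrd1 was 0.74 (SE 0.09, 95% interval 0.53 to 0.96) and did not pass, at an adjusted p of 0.0519. With the hairpin as a replicate block it passed (adjusted p = 0.0462), as it did with median centring (adjusted p = 0.0403). An intensity trend (adjusted p = 0.0459) and the 4 other arrays pooled (adjusted p = 0.0245) gave the same call. These are 4 of the 12 alternatives that kept Tdrd1. It missed with quantile normalization (adjusted p = 0.0554) and without the dimmest 25% of genes (adjusted p = 0.0536). It also missed with all probe sets tested (adjusted p = 0.225) and with the mean feeder level as a covariate (adjusted p = 0.33). With 1 hairpin array left out the change lay between 0.69 and 0.80. Rnf17, a RING finger protein with Tudor domains that restrains piRNA amplification, read 9.42 and 9.50 with dox, 8.72 and 8.74 without, and 8.58 and 8.56 in the scrambled line. Its groups did not overlap, and it rose by 0.73 (SE 0.09, adjusted p = 0.0487). Rnf17 did not pass when any 1 of the 4 hairpin arrays was left out, at adjusted p between 0.18 without induced hairpin 1 and 0.36 without uninduced hairpin 2 (0.3 without induced hairpin 2, 0.201 without uninduced hairpin 1).

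Mael and Asz1 are nuage proteins of another kind. Mael, or Maelstrom, is needed for transposon silencing during spermatogenesis. It read 10.77 and 10.78 with dox and 8.80 and 8.79 without dox in the Pcgf6-hairpin lines, and 8.08 with and 8.74 without dox in the scrambled line. The 3 uninduced arrays were within 8.74 and 8.80, the induced hairpin arrays were the highest and the induced scrambled array was the lowest. Mael rose by 1.98 (SE 0.08, adjusted p = 0.000846), or 3.95-fold, the sixth-ranked rise among all genes. Asz1, or GASZ, which ties nuage to mitochondria, read 5.11 and 5.26 with dox, 4.78 and 4.92 without, and 4.72 and 4.71 in the scrambled line. All 6 values lay below the lower quartiles of the arrays (5.50 to 5.56), and no detection p-value came with the data. The change of Asz1 was 0.33 under each hairpin and 0.33 (SE 0.10, 95% interval 0.09 to 0.58, adjusted p = 0.482) over both. Its groups did not overlap, as was true of 9 of the 10 genes, Tdrd9 being the exception. For 11.1% of all genes both induced Pcgf6-hairpin arrays were above each of the 4 other arrays.

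Within the hairpin 1 line, 7 of the 10 genes were at least 1.5-fold higher with dox (0.627% of all genes), and within the hairpin 2 line 7 were (2.17% of all genes). In both lines the 7 are the genes other than Asz1, Piwil4 and Tdrd9. None of the 10 was 1.5-fold lower in either line (0.241% of all genes in the first, 0.446% in the second). The median change of the 10 genes was 1.10 under hairpin 1 and 1.13 under hairpin 2. In the scrambled line 0 of the 10 genes were 1.5-fold higher (1.48% of all genes), 1 was 1.5-fold lower (0.211% of all genes) and the median was 0.02. The gene that was lower in the scrambled line was Mael, at -0.65, and the other 9 lay between -0.20 and 0.11. These changes rest on 1 array against 1 and carry no test. Median changes of the feeder list were -0.01 for hairpin 1, 0.42 for hairpin 2 and 0.59 for scrambled. With the feeder score as a covariate, the change over both hairpins passed for 5 of the 10 genes, all but Rnf17 of the 6.

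**Figure D3:**
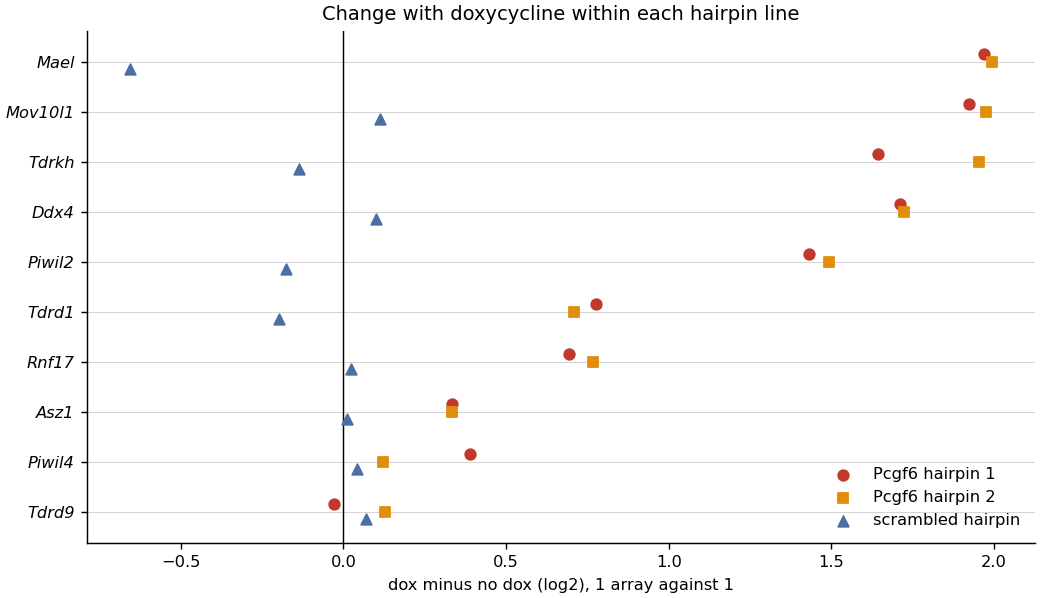
Change with dox (log2, induced minus uninduced array) of each gene within the hairpin 1 (circles), hairpin 2 (squares) and scrambled (triangles) lines; each point is 1 array against 1. For the upper 7 genes both hairpin points lie between 0.69 and 1.99 and the scrambled point between -0.65 and 0.11.

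The response of the Pcgf6 hairpins was then compared with that of the scrambled hairpin, which controls for dox itself. The difference of the responses passed for 5 of the 10 genes, all of them higher with the Pcgf6 hairpins: Mael (2.64, SE 0.14, limma adjusted p = 0.00645), Tdrkh (1.93, SE 0.18, adjusted p = 0.0427), Mov10l1 (1.84, SE 0.15, adjusted p = 0.0366), Piwil2 (1.64, SE 0.14, adjusted p = 0.0383) and Ddx4 (1.62, SE 0.16, adjusted p = 0.0456). Of all genes, 0.0652% were higher, 0.00502% lower and 0.0702% either by this criterion. At an unadjusted p under 0.05 the number was 7 of 10, all higher, against 4.55% of all genes in either direction. Of the 19938 genes, 525 were higher by that measure. The value of Mael includes the -0.65 of the scrambled line. Tdrd1 differed by 0.94 (95% interval 0.57 to 1.31, adjusted p = 0.31) and Rnf17 by 0.71 (95% interval 0.35 to 1.07, adjusted p = 0.62), and neither passed. Asz1, Piwil4 and Tdrd9 differed by 0.32, 0.21 and -0.02, each with a 95% interval that included 0. The scrambled groups hold 1 array each and were taken to vary like the hairpin groups. The count was 1 (Mael) without either induced hairpin array, 0 without either uninduced hairpin array, 0 when all 35556 probe sets were tested and 0 with the feeder score as a covariate. The estimates of the 5 genes stayed between 1.56 and 2.67 over these and the other alternatives.

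**Figure D4:**
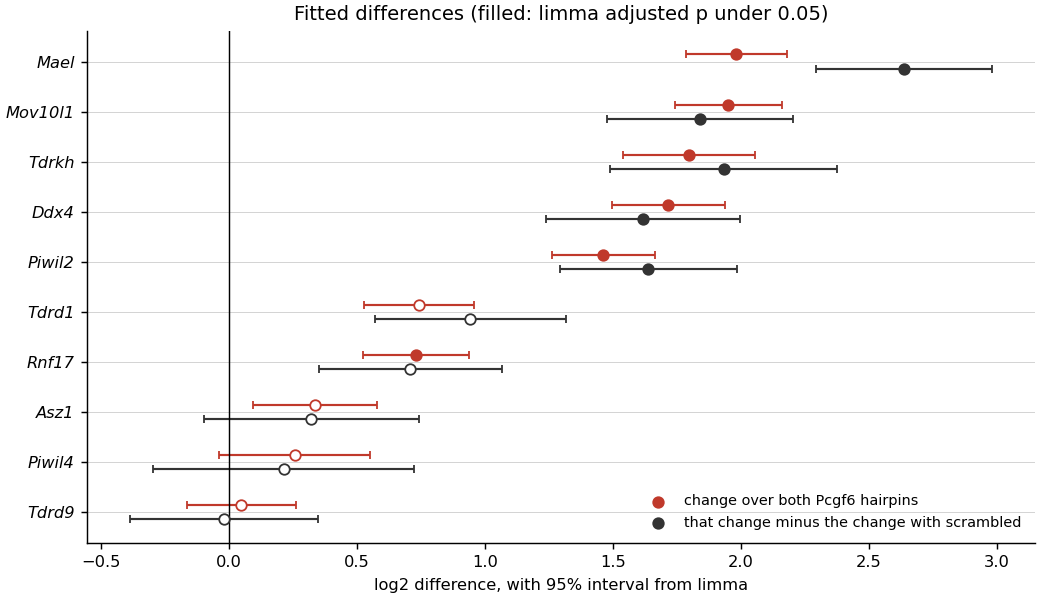
Fitted change over both Pcgf6 hairpins (red) and that change minus the change of the scrambled line (black), on the log2 scale with 95% intervals from limma; filled symbols passed an adjusted p of 0.05. The upper 5 genes passed in both comparisons and Rnf17 passed in the first.

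Before induction no difference between the lines passed for these genes. Uninduced Pcgf6 hairpins against uninduced scrambled gave 0 of 10 genes past the threshold by limma, as for all genes (0%), and 1 at an unadjusted p under 0.05 (8.06% of all genes). That gene was Ddx4, 0.27 higher in the hairpin lines (SE 0.11, unadjusted p = 0.0475, adjusted p = 0.616). The other 9 differences lay between -0.14 and 0.20. The feeder list was higher in the uninduced hairpin arrays by a median of 0.81. With the feeder score as a covariate the 10 differences lay between -0.73 for Tdrkh and 0.66 for Piwil4, with SE of 0.38 to 0.42, and 0 passed by limma (adjusted p = 1.00 for each).

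Among the other genes of the pathway none passed. Of 24 further piRNA genes, 19 were measured. By limma 0 rose (0.191% of all genes) and 0 fell (0.01% of all genes), counts near those shares. At an unadjusted p under 0.05 the number was 7 (8.75% of all genes in either direction), 4 of them higher. Their median change was 0.01, in a range from -0.54 to 0.58. Tex15, which acts with Piwil4 in silencing, was nearest, at 8.99 and 9.05 with dox, 8.42 and 8.45 without, and 8.41 and 8.56 in the scrambled line. Its groups did not overlap, and the change was 0.58 (SE 0.08, adjusted p = 0.0905), which passed against the 4 other arrays pooled (adjusted p = 0.0197). Henmt1, which methylates piRNA ends, read 6.29 and 6.54 with dox, 5.82 and 5.99 without, and 5.68 and 5.62 in the scrambled line. Its change was 0.51 (95% interval 0.23 to 0.79, adjusted p = 0.324), and that of Gpat2, a mitochondrial piRNA factor, was 0.39 (adjusted p = 0.403). Neither passed. Pnldc1, the nuclease that trims piRNA ends together with Tdrkh, measured -0.54 (adjusted p = 0.382), the methylation cofactor gene Dnmt3l -0.41 (adjusted p = 0.439) and the Tudor gene Tdrd12 -0.32 (adjusted p = 0.496). Piwil1, the PIWI gene of later male germ cells, read 6.48 and 6.46 with dox and 6.36 and 6.53 without, a change of 0.02 (95% interval -0.20 to 0.25); it was named for its family and after its values were seen.

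Broadly expressed counterparts were set beside the germ-line genes. This list and that of the other pathway genes were chosen with earlier results of these data known. The contrast with the 10 genes is therefore a description. Of the 12 counterparts 0 passed by limma in any comparison. Of all genes, 0.201% passed for the change with dox, so a count of 0 is near that share. At an unadjusted p under 0.05 the number was 0 for the change with dox (8.75% of all genes), and the median change was -0.01. Mov10, the counterpart of Mov10l1, read 11.25 and 10.98 with dox, 11.34 and 11.32 without, and 11.61 and 11.63 in the scrambled line, a change of -0.21 (95% interval -0.48 to 0.05). The microRNA-binding Argonaute genes Ago1, Ago2, Ago3 and Ago4 measured -0.11, -0.02, 0.05 and 0.03. The helicase genes Ddx3x and Ddx6 each measured -0.05. The microRNA processing and export genes Dicer1, Drosha, Dgcr8, Tarbp2 and Xpo5 lay between -0.11 and 0.03.

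The nearest measured protein-coding genes on either side of each piRNA gene, 20 in all, were read on the same arrays. As they were added later, the genes named here were picked after their values were seen. The changes of the 20 genes ran from -0.16 to 0.38, with a median of 0.04. By limma 0 of the 20 passed, a count near the share of 0.201% of all genes in either direction. An unadjusted p under 0.05 was reached by 3, all higher (8.75% of all genes in either direction, 876 of 19938 higher). These were Gpa33 beside Mael, at 0.38 (SE 0.12, adjusted p = 0.504), Amotl1 beside Piwil4, at 0.33 (SE 0.12, adjusted p = 0.538), and Mlc1 beside Mov10l1, at 0.24 (SE 0.09, adjusted p = 0.538). Polr3d and Slc39a14 beside Piwil2 measured -0.05 and -0.16, and Oaz3 and Lingo4 beside Tdrkh -0.01 and 0.01.

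**Figure D5:**
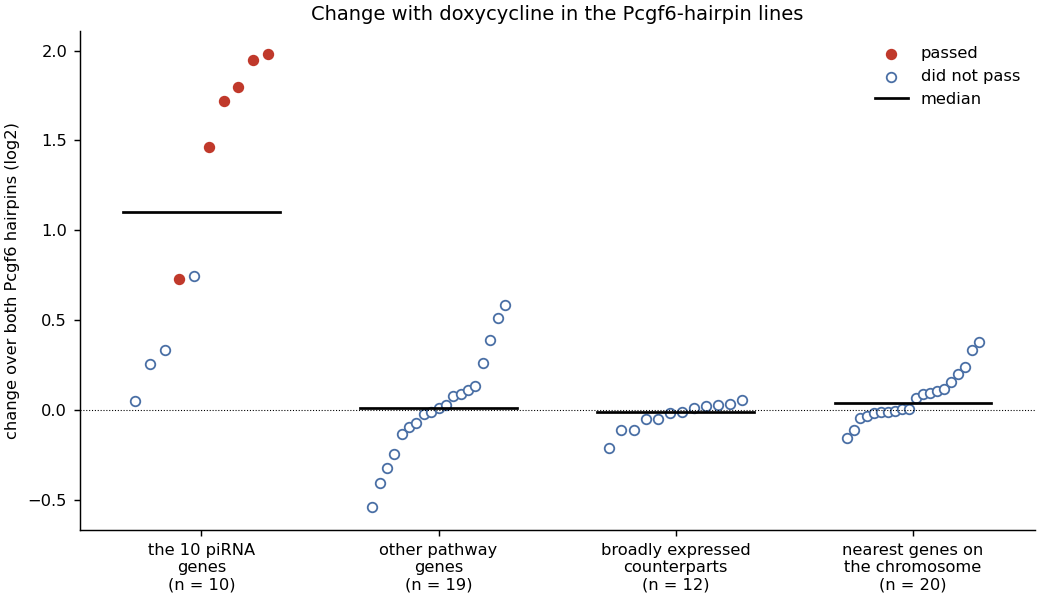
Change over both Pcgf6 hairpins (log2) of the 10 piRNA genes, 19 other genes of the pathway, 12 broadly expressed counterparts and the 20 nearest genes on the chromosome; each point is 1 gene, filled where it passed by limma, and bars are medians. The piRNA genes have a median of 1.10 and the medians of the other sets lie between -0.01 and 0.04. The lists were chosen with earlier results of these data known, so the contrast between them is a description.

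The genes outside these lists whose array profile was most like the mean profile of the 10 were Pramel1, Hormad2, Tent5d, Sycp2 and Zfp352. Likeness was the root mean square difference over the 6 arrays after centring, and it was 0.07 for Pramel1, 0.11 for Hormad2, 0.12 for Tent5d and Sycp2, and 0.13 for Zfp352. The mean of the 10 genes was 8.44 and 8.45 on the induced hairpin arrays, 7.36 and 7.33 on the uninduced ones, and 7.21 and 7.29 on the induced and uninduced scrambled arrays. Hormad2 and Sycp2 encode proteins of the meiotic chromosome axis, and Pramel1 belongs to the PRAME family. Hormad2 read 7.25 and 7.31 with dox, 5.95 and 5.94 without, and 5.77 and 5.99 with and without dox in the scrambled line. Pramel1 read 7.06 and 7.11 with dox, 6.17 and 6.09 without, and 5.94 and 5.96 in the scrambled line. The genes were selected for this likeness, so their values are a description.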

How the data were processed

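The values are log2 expression as deposited. The submitters' processing notes name Affymetrix Power Tools and RMA, and versions are not given in those notes. RMA corrects the background, brings arrays to a common distribution and summarises probes, which takes out any shift common to most genes. Probe sets were named from GEO's platform annotation: of 35556, 21789 had 1 symbol, 1621 several and 12146 none, and 21698 were found in RefSeq (GRCm38.p6) by Entrez identifier. For the 999 genes with several probe sets the brightest was used. The number of arrays limits the precision.

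A limma 3.58.1 model (R 4.3.3) with 1 mean per group was fitted to all 6 arrays and 19938 genes, with 2 residual and 4.44 prior degrees of freedom; p-values were two-sided and adjusted by Benjamini-Hochberg. The code was tested on simulated data. SE is the moderated standard error. The labels give induced and uninduced arrays the same hairpin number, and their deviations had a correlation of 0.181 over genes; the fit that blocks on the hairpin was one alternative. At most 0.0984% of probe sets were identical on a pair of arrays.

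The 10 genes and all lists were chosen with earlier results of these data known. Named genes were all 10, Pcgf6, all counterparts, up to 6 other pathway genes with the largest change plus any that passed, and the 5 most alike profiles; neighbouring genes were added later. Fkbp6, Dnmt3c, Spocd1, Btbd18 and Tdrd15 of the pathway list were not analysed here. Protein sequences were not used here.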

Additional observations from a re-analysis of the deposited data

Results flagged for a closer look

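For 5 genes the change with dox in the Pcgf6-hairpin lines differed from that in the scrambled line by a test of the difference itself (limma, adjusted over all genes). The difference was 2.64 for Mael, 1.93 for Tdrkh, 1.84 for Mov10l1, 1.64 for Piwil2 and 1.62 for Ddx4, on the log2 scale. Of these calls 0 held with the feeder score as a covariate, with all probe sets tested or without either uninduced hairpin array, and 1 (Mael) held without either induced hairpin array. Each was higher with dox under both hairpins. In the scrambled line Mael measured -0.65, Piwil2 -0.18 and Tdrkh -0.14, while Mov10l1 and Ddx4 measured 0.11 and 0.10. The scrambled line has 1 array per condition, so how far its values would vary between cultures was not tested.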

How the results depend on the processing

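Over 13 alternatives the rises of Mael, Mov10l1, Ddx4 and Piwil2 in the hairpin lines passed each time, with adjusted p of at most 0.048. The number of the 10 genes past the threshold there was 6, and lay between 4 and 5 with 1 hairpin array left out; it was 7 with the hairpin as a replicate block, where Tdrd1 also passed and no other call among the 10 changed in either comparison. Rnf17 also missed the threshold with quantile normalization (adjusted p = 0.0574), without the dimmest 50% of genes (adjusted p = 0.0789), with all probe sets tested (adjusted p = 0.215) and with the feeder score (adjusted p = 0.528). For the difference from scrambled the count of 5 became 3 without the dimmest 25% and 3 without the dimmest 50% of genes, 0 with all probe sets tested, 0 with the feeder score as a covariate, and between 0 and 1 with 1 hairpin array left out. With the feeder score 1 residual degree of freedom remained. Among the other pathway genes the count of 0 became 1 (Tex15) against the 4 other arrays pooled. The count for the uninduced lines was 0 under every alternative run. The scrambled median of 0.02 was -0.01 with median centring, a move below the spread between hairpin arrays. Over all genes, 40 passed for the change with dox (7 without the dimmest 50%, 82 against pooled controls, 62 with an intensity trend, 21 with the feeder score, between 14 and 26 with 1 array left out), and 14 for the difference (22 with median centring, 23 with the block, between 0 and 4 with 1 array left out, 9 without the dimmest 25%, 4 without the dimmest 50%, 0 with all probe sets or the feeder score).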

Other observations

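A few other pathway genes were lower with dox in all 3 lines, the scrambled one included. The Tudor gene Tdrd12 read 8.79 with and 9.04 without dox under hairpin 1, 8.86 and 9.25 under hairpin 2, and 8.77 and 9.33 in the scrambled line. Pnldc1 changed by -0.36, -0.72 and -0.13 and Dnmt3l by -0.25, -0.57 and -0.08 in the same order. Tdrd6 changed by -0.14, -0.13 and -0.17. The share of all genes that were lower in all 3 lines was not counted. None of these genes passed for the change over both hairpins or for the difference from scrambled. These genes were picked after their values were seen.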
